A study of Mus musculus with 8 samples.

Results

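The 7 genes described here are those for the histone H3 lysine 4 (H3K4) demethylases Kdm1a, Kdm1b, Kdm5a and Kdm5b and for the 3 CoREST scaffold proteins, Rcor1, Rcor2 and Rcor3. They were chosen by name, through their Ensembl identifiers, out of 54446 genes in each count table, and all 7 passed the filter on low counts that left 21782 genes for testing. The RNA came from the nuclear fraction of C57BL/6 mouse embryonic stem cells grown in serum medium with LIF, the GSK3 inhibitor CHIR99021 and the MEK inhibitor PD0325901. The 8 libraries fall into 4 groups of 2: Mettl14 cKO (written CKO in the sample titles), Mettl14 control, Mettl3 cKO and Mettl3 control. All groups share the strain and the medium. The sources used here do not give the deleted exons, the way deletion was brought about, the time since deletion or the origin of the lines. They do not say either that replicates were separate cultures, so p-values cover only the spread among these libraries, which may be technical. Mettl3 and Mettl14 encode the catalytic and the RNA-binding subunit of the complex that writes N6-methyladenosine (m6A) on RNA, and the series asked how nuclear RNA changes when either gene is lost.

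Methylation of H3K4 marks active promoters and enhancers. KDM1A (LSD1) and KDM1B (LSD2) are flavin-dependent oxidases that remove mono- and dimethyl groups from this lysine, whereas KDM5A and KDM5B are iron-dependent Jumonji enzymes that act on the di- and trimethylated forms. The RCOR proteins hold KDM1A together with the deacetylases HDAC1 and HDAC2 in the CoREST complex and bring the enzyme to nucleosomes. In mouse embryonic stem cells KDM1A is known for shutting down enhancers of the pluripotent state during differentiation.

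In mm10 coordinates, Kdm1a (ENSMUSG00000036940.15) lies on the minus strand at chr4:136550540-136602723 and Kdm1b (ENSMUSG00000038080.17) on the plus strand at chr13:47043499-47085279. Kdm5a (ENSMUSG00000030180.15) lies on the plus strand at chr6:120364124-120444574 and Kdm5b (ENSMUSG00000042207.17) on the plus strand at chr1:134560171-134635285. Rcor1 (ENSMUSG00000037896.17) occupies chr12:111039351-111115901 on the plus strand, Rcor2 (ENSMUSG00000024968.13) chr19:7267325-7275225 on the plus strand and Rcor3 (ENSMUSG00000037395.15) chr1:192098546-192138062 on the minus strand. Exons of Kdm1a, Kdm5b and Rcor2 share no base with another annotated gene. Kdm1b shares 505 exon bases, 9.19% of its exon length, with Dek on the opposite strand, and Kdm5a shares 251 bases, 1.77%, with Ccdc77 on the opposite strand. Rcor3 shares 667 bases with Gm26879, 336 with Gm10516 and 133 with Gm37055, all on the opposite strand. Rcor1 shares 53 bases with Gm48632 on the same strand, which counting by strand cannot separate. The sources used here do not say whether reads were counted by strand. How reads in the opposite-strand stretches were counted is therefore not known.

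RefSeq promoter windows (GRCm38.p6) were at hand for 6 of the 7 genes, all but Kdm5a. The bases upstream of the annotated start are printed for Kdm1a and Kdm5b, which changed most in Mettl14 cKO cells, and for Kdm1b and Rcor3, which did not pass the test there. Capitals mark a GC box (GGGCGG, read on either strand) or a CCAAT box (CCAAT, either strand). The windows are chr4:136602724-136602973 (minus strand) for Kdm1a, chr1:134559928-134560170 (plus) for Kdm5b, chr13:47043249-47043498 (plus) for Kdm1b and chr1:192138063-192138290 (minus) for Rcor3.
Kdm1a: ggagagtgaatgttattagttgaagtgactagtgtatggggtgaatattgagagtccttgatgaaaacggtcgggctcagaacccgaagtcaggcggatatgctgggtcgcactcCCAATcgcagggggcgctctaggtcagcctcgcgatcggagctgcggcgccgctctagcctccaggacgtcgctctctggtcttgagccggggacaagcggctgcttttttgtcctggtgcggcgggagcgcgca
Kdm5b: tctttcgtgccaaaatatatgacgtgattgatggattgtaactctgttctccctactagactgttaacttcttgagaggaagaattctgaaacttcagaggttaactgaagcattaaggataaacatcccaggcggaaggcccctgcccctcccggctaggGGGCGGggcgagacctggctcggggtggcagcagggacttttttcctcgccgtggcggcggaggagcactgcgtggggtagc
Kdm1b: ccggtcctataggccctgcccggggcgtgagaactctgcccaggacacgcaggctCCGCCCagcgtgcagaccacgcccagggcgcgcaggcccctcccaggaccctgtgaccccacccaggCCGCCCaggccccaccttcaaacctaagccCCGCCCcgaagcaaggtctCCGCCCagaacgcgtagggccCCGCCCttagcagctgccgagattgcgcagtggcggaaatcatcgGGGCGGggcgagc
Rcor3: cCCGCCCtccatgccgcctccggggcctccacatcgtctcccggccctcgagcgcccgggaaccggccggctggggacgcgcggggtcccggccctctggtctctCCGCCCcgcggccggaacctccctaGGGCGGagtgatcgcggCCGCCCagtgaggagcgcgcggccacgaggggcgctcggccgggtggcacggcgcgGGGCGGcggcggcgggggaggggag

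The printed Kdm1a window held 1 CCAAT box and no GC box, and the Kdm5b window held 1 GC box. The Kdm1b window held 6 GC boxes and the Rcor3 window 5. The GC content was 59.2% for Kdm1a and 54.3% for Kdm5b, against 71.6% for Kdm1b and 81.6% for Rcor3. The windows of Rcor2 (64.1% GC, 10 CpG) and Rcor1 (70.9% GC, 23 CpG) are not printed. The median over the windows of 27025 genes was 52% GC and 6 CpG, and 32.9% of the full 250-base windows held a GC box and 34.5% a CCAAT box. The other motifs searched on both strands were TATAAA (in 13% of all windows), CCGGAAG (7.05%), TGACGTCA (1.62%), CACGTG (6.05%), ATGCAAAT (1.61%) and ACAAAG (16.5%); none overlaps the printed capitals. Of these, CACGTG occurred 1 time, in the full window of Rcor2, and the others in none of the 6 windows. These matches describe letters in short windows; factor binding was not measured here.

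The targeted genes checked the labels. Mettl14 stood at 27.8 and 30.2 CPM (the count relative to the library size, scaled by the TMM method) in the Mettl14 cKO libraries, against 58.3 and 55.0 in the Mettl14 control libraries, a log2 fold change of −0.96 ± 0.068 (standard error, as with every ± after a log2 fold change). Mettl3 stood at 19.8 and 18.6 CPM in Mettl3 cKO, against 37.9 and 36.1 in Mettl3 control, a log2 fold change of −0.95 ± 0.075. About as much Mettl14 RNA as in the Mettl14 cKO libraries was counted in Mettl3 cKO, 29.6 and 28.7 CPM, and in Mettl3 control, 30.1 and 26.7 CPM. Library totals ran from 17235889 to 20086128 counts, and the 7 genes were counted between 267 (Rcor3) and 8399 (Kdm5b) times per library.

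Markers of cell identity moved with the groups. The summed level of 8 pluripotent stem cell markers was 1984 and 1997 CPM in Mettl14 cKO, 2832 and 2814 in Mettl14 control, 1006 and 1012 in Mettl3 cKO, and 1079 and 1075 in Mettl3 control. The sum of 13 fibroblast markers was 1425 and 1421 CPM in Mettl14 cKO, and 709.5 and 711.7 in Mettl14 control. This fibroblast sum was 7003 and 6949 in Mettl3 cKO, and 5951 and 5769 in Mettl3 control. In Mettl3 cKO, Col1a1 (mean 3294 CPM) and Col1a2 (mean 2140 CPM) carried most of it. Lum, in 1 Mettl14 control library, was the only marker at 0. Of the 8 pluripotency markers, 8 fell in Mettl14 cKO, and of 12 fibroblast markers tested, 10 rose. Over all genes tested, 22.4% were called lower and 18.0% higher there. In Mettl3 cKO, 4 of the 8 pluripotency markers fell and 1 rose, and 6 of the 12 fibroblast markers rose and 2 fell. The shares over all genes were 5.78% lower and 15.1% higher in that comparison. Transcripts of the mitochondrial genome summed to 14810 and 14790 CPM in Mettl14 cKO, against 35860 and 35810 in Mettl14 control, and to 11650 and 12330 in Mettl3 cKO, against 9301 and 9789 in Mettl3 control. The sum of 9 primitive endoderm markers lay between 283.4 and 761.4 CPM and that of 6 neuron markers between 35.3 and 100.7 CPM. Each sum was lowest in Mettl14 control and highest in Mettl3 cKO, but single genes carried much of it. From Mettl14 control to Mettl3 cKO, mean CPM went from 155 to 652.8 for Col4a1 and from 27.5 to 94.7 for Map2. Other markers went the other way, such as Lama1 (105.2 to 54.9) and Elavl3 (2.9 to 2.2). In Mettl14 cKO 1 of the 6 neuron markers rose and 3 fell, and 1 of 8 primitive endoderm markers tested rose. The part of these shifts in the results below was not tested, and in bulk RNA fewer cells of a type and less RNA per cell cannot be told apart.

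In Mettl14 cKO cells 5 of the 7 genes fell: Kdm1a and Kdm5b to 50.9% of the control level each, Rcor2 to 58.9%, Rcor1 to 71.5% and Kdm5a to 85.8%. Kdm1b and Rcor3 did not pass the test. The median log2 fold change of the 7 was −0.48, beside 0.034 over all genes tested. The background was high: 22.4% of the 21782 genes were called lower and 18.0% higher in this comparison; lower calls made up 44.4% of the 7441 genes within the abundance range of the 7.

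Among the flavin-dependent enzymes, Kdm1a, the catalytic subunit of CoREST, had 138.6 and 139.8 CPM in Mettl14 cKO, against 272.6 and 274.5 in Mettl14 control. The groups were far apart, with replicates within 2 CPM of each other. The log2 fold change was −0.97 ± 0.036 (edgeR, adjusted p = 1.4e-53), and 1.76% of the genes of similar abundance had a lower value. Kdm1b, the paralog that works without CoREST and is needed in mouse oocytes for maternal imprints, had 34.7 and 36.1 CPM in Mettl14 cKO, against 39.0 and 35.8 in Mettl14 control. These ranges overlapped, and the log2 fold change of −0.079 ± 0.071 did not pass (edgeR, adjusted p = 0.408). Dek, whose exons overlap those of Kdm1b, had a log2 fold change of −1.64 in the same comparison.

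Among the Jumonji enzymes, Kdm5b, which takes part in self-renewal and differentiation of mouse embryonic stem cells, had 263.2 and 267.8 CPM in Mettl14 cKO, against 516.4 and 527.3 in Mettl14 control. Its log2 fold change was −0.97 ± 0.028 (edgeR, adjusted p = 4.6e-65), and 1.75% of genes of similar abundance lay lower. Kdm5a, first known as a binding partner of the retinoblastoma protein, had 335.7 and 343.3 CPM in Mettl14 cKO, against 392.8 and 398.5 in Mettl14 control. The groups did not overlap, but the change was small at −0.22 ± 0.028 (edgeR, adjusted p = 2.0e-11). A lower value was found for 35.4% of genes in that abundance range. Ccdc77, which overlaps Kdm5a on the opposite strand, had a log2 fold change of −0.68.

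Among the scaffolds, Rcor2, a partner of KDM1A in mouse embryonic stem cells, had 25.1 and 24.6 CPM in Mettl14 cKO, against 42.5 and 41.9 in Mettl14 control (log2 fold change −0.76 ± 0.076, edgeR, adjusted p = 7.8e-17). Rcor1, the founding CoREST protein, had 29.5 and 28.9 CPM in Mettl14 cKO, against 40.3 and 41.4 in Mettl14 control (−0.48 ± 0.071, edgeR, adjusted p = 2.1e-09). For both scaffolds the Mettl14 cKO libraries lay below the Mettl14 control libraries with no overlap. Rcor3, described in mouse blood cells as a scaffold that antagonises RCOR1, had 15.5 and 17.3 CPM in Mettl14 cKO, against 18.0 and 17.2 in Mettl14 control. Its groups overlapped (−0.10 ± 0.10, edgeR, adjusted p = 0.468). Among genes of similar abundance, 4.74% had a lower value than Rcor2 and 13.7% a lower value than Rcor1, while Kdm1b and Rcor3 sat near the middle, at 51.4% and 48.9%.

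**Figure D1:**
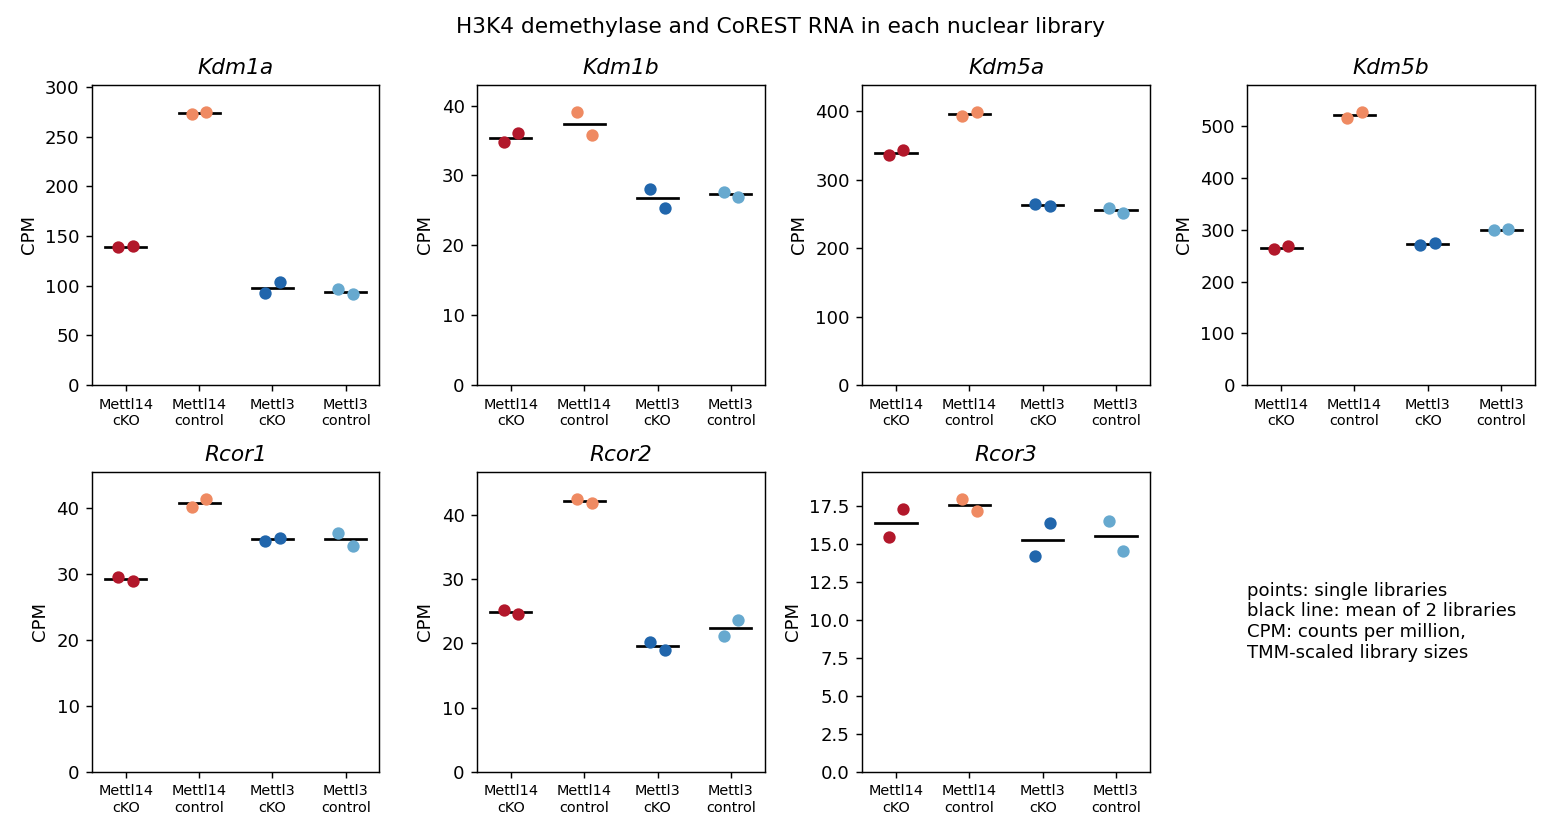
Level of each gene in CPM (vertical axes, from 0) in the 8 nuclear libraries, with points for libraries and black lines for means of 2. The Mettl14 control points stand above those of the other 3 groups for Kdm1a, Kdm5a, Kdm5b, Rcor1 and Rcor2, whereas all 8 Rcor3 points lie between 14.2 and 18.0 CPM.

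In Mettl3 cKO cells 1 of the 7 genes fell, Kdm5b, by a small amount, and the other 6 did not pass the test. Kdm5b had 271.2 and 273.7 CPM in Mettl3 cKO, against 298.8 and 301.8 in Mettl3 control (log2 fold change −0.14 ± 0.029, edgeR, adjusted p = 5.0e-05). The median log2 fold change of the 7 was −0.022, beside 0.026 over all genes tested. In this comparison 5.78% of all genes were called lower and 15.1% higher, and 6.88% of genes in the abundance range of the 7 were called lower.

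Kdm1a had 92.9 and 103.2 CPM in Mettl3 cKO, against 96.1 and 91.9 in Mettl3 control (log2 fold change 0.061 ± 0.041, edgeR, adjusted p = 0.325). Rcor2 had 20.1 and 18.9 CPM in Mettl3 cKO, against 21.1 and 23.6 in Mettl3 control; the groups did not overlap, but the change of −0.19 ± 0.084 missed the threshold (edgeR, adjusted p = 0.0885). Kdm5a had 264.2 and 261.3 CPM in Mettl3 cKO, against 259.3 and 251.5 in Mettl3 control (0.041 ± 0.030, edgeR, adjusted p = 0.358). The Kdm5a groups did not overlap either, though they differed by little. The remaining 3 genes overlapped between the groups. Kdm1b had 28.1 and 25.3 CPM in Mettl3 cKO, against 27.6 and 26.9 in Mettl3 control. Rcor1 had 35.1 and 35.6 CPM in Mettl3 cKO, against 36.3 and 34.3 in Mettl3 control. Rcor3 had 14.2 and 16.4 CPM in Mettl3 cKO, against 16.5 and 14.5 in Mettl3 control. Their log2 fold changes of −0.032 ± 0.076, 0.0012 ± 0.067 and −0.022 ± 0.10 were each smaller than the standard error.

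These small changes depended on the scaling and on single libraries. With upper-quartile scaling Rcor2 was called as well (−0.31, edgeR, adjusted p = 0.0043), whereas its value was −0.078 without Mettl3 control replicate 2, −0.11 without Mettl3 cKO replicate 2 and −0.087 without the low-count filter. Without the low-count filter the Kdm5b call was lost (−0.033, edgeR, adjusted p = 0.667) and Kdm1a (0.17) and Kdm5a (0.15) were called higher. Kdm1a was also called higher without Mettl3 cKO replicate 1 (0.17), and Kdm5a was called higher without Mettl14 cKO replicate 1 (0.081), without Mettl14 control replicate 2 (0.082) or without Mettl3 control replicate 1 (0.094).

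The change in Mettl14 cKO was lower than the change in Mettl3 cKO for 5 of the 7 genes, by the test of the difference itself. In that test 20.5% of all genes were called lower and 12.7% higher, and 44.8% of genes in the abundance range of the 7 were called lower. The difference in log2 fold change (the Mettl14 change minus the Mettl3 change) was −1.04 ± 0.055 for Kdm1a (edgeR, adjusted p = 3.7e-37) and −0.83 ± 0.040 for Kdm5b (edgeR, adjusted p = 7.7e-41). It was −0.57 ± 0.11 for Rcor2 and −0.48 ± 0.098 for Rcor1 (edgeR, adjusted p = 1.4e-05 for Rcor2 and 1.7e-05 for Rcor1). Kdm5a differed by −0.26 ± 0.041, but by −0.0925 (edgeR, adjusted p = 0.0637) when the TMM factors were taken from abundant genes only, so its call rests on the scaling. The differences for Kdm1b, −0.047 ± 0.10, and Rcor3, −0.079 ± 0.14, did not pass.

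**Figure D2:**
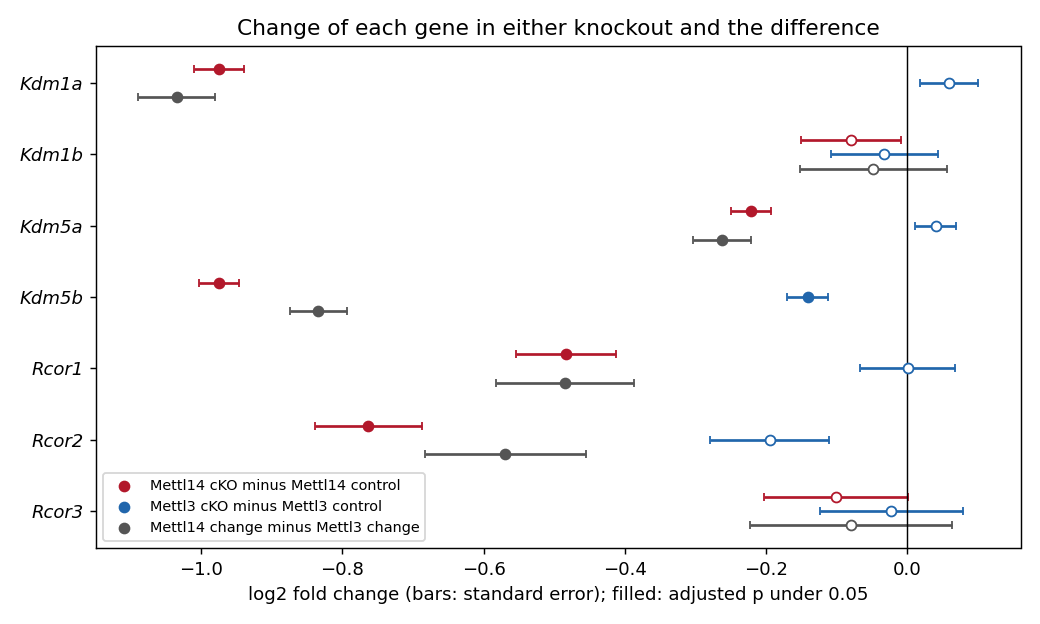
Log2 fold change (horizontal axis; bars are standard errors) of each gene in Mettl14 cKO, in Mettl3 cKO and the difference between the changes; filled points have an adjusted p under 0.05. Kdm1a and Kdm5b lie at −0.97 in Mettl14 cKO, while in Mettl3 cKO all 7 lie between −0.19 and 0.061.

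**Figure D3:**
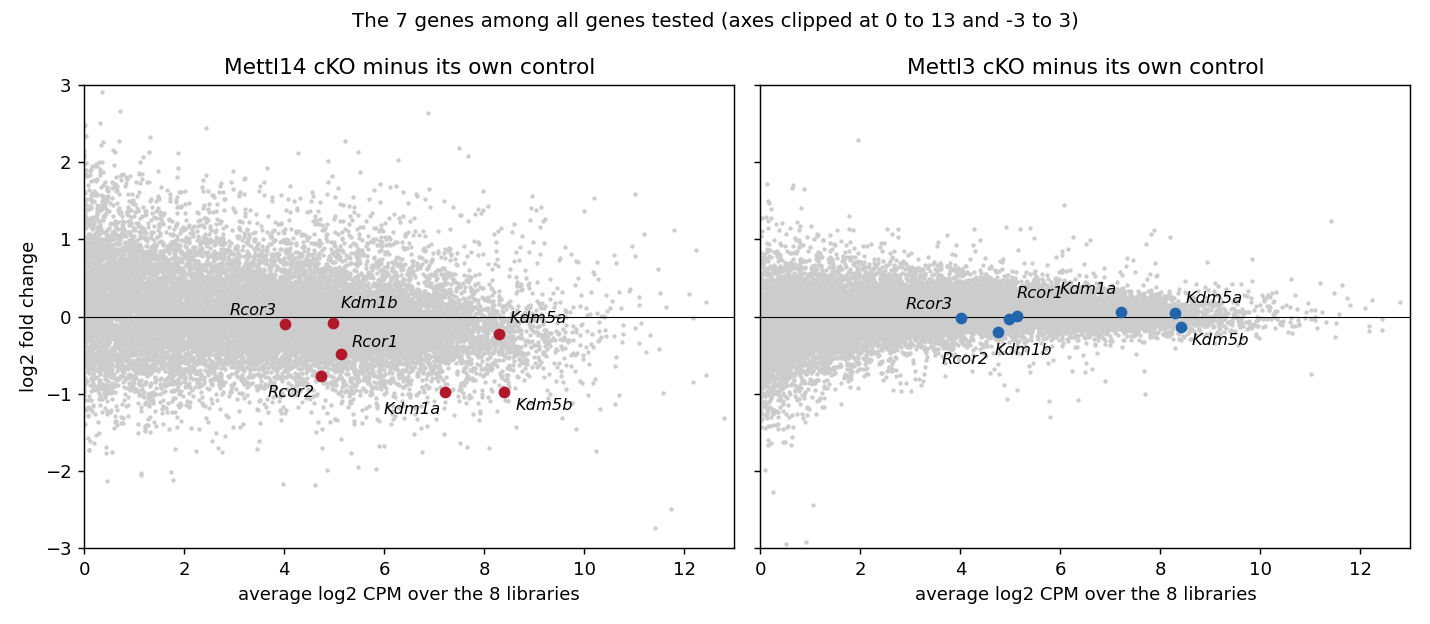
Log2 fold change (vertical axis) against average log2 CPM (horizontal axis) for all genes tested, in grey, and for the 7 genes, in colour. In Mettl14 cKO, Kdm1a and Kdm5b sit at the lower edge of the grey cloud. Of genes in the abundance range of the 7, 1.76% and 1.75% lie below them.

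The control groups, which share the libraries used above, differed in these genes too. Mettl14 control was higher than Mettl3 control for 6 of the 7, in a comparison where 33.6% of all genes were called higher and 34.1% lower, and 62.4% of genes in the abundance range of the 7 were called higher. The log2 difference was 1.54 ± 0.037 for Kdm1a, whose mean was 273.6 ± 1.3 CPM in Mettl14 control and 94.0 ± 3.0 in Mettl3 control (SD, n = 2 each). It was 0.92 ± 0.076 for Rcor2, 0.80 ± 0.028 for Kdm5b, 0.63 ± 0.029 for Kdm5a, 0.45 ± 0.074 for Kdm1b and 0.21 ± 0.068 for Rcor1. Rcor3 differed by 0.18 ± 0.10 (edgeR, adjusted p = 0.109). Scaling moved these values: with TMM factors from abundant genes Kdm1b lost its call (0.15, edgeR, adjusted p = 0.0603), Kdm5a was at 0.33, Kdm5b at 0.49 and Rcor2 at 0.61, and Rcor1 (−0.095) and Rcor3 (−0.13) changed sign uncalled, as they did with upper-quartile scaling (−0.0084 for Rcor1 and −0.039 for Rcor3). Rcor3 was called higher without the low-count filter (0.32) and when any replicate of either cKO group or Mettl3 control replicate 1 was left out (0.22 to 0.30). Line, genotype and culture cannot be told apart in this comparison.

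The order of the groups differed between genes. For Kdm1a the mean was 139.2 CPM in Mettl14 cKO and 273.6 in Mettl14 control, and 98.1 in Mettl3 cKO and 94.0 in Mettl3 control. Mettl14 control was thus highest and Mettl14 cKO next, and only the Mettl3 groups overlapped. For Kdm5b, Mettl14 cKO, at 265.5 CPM, was the lowest group, just under Mettl3 cKO at 272.4. For Rcor1 it was the lowest as well, with both libraries below all the others, at 29.2 CPM. For Kdm5a, Mettl14 cKO, at 339.5 CPM, lay between Mettl14 control, at 395.7, and the Mettl3 groups, at 262.8 in Mettl3 cKO and 255.4 in Mettl3 control.

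Levels per kilobase of annotated exon allow the paralogs to be set side by side. Kdm1a was the main flavin-dependent demethylase RNA in every group, at 26.9 CPM per kb in Mettl14 cKO and 52.8 in Mettl14 control, while Kdm1b had 6.44 in Mettl14 cKO and 6.81 in Mettl14 control. Kdm1a made up 80.7% ± 0.32 of their sum in Mettl14 cKO and 88.6% ± 0.67 in Mettl14 control, and 79.5% ± 2.4 in Mettl3 cKO and 78.5% ± 0.23 in Mettl3 control (SD, n = 2 each). The Mettl14 cKO share thus lay within the spread of the Mettl3 cKO libraries, below that of Mettl14 control.

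Among the scaffolds, Rcor2 made up 55.4% ± 0.45 of the CoREST RNA per kb in Mettl14 cKO and 61.2% ± 0.54 in Mettl14 control, and 45.7% ± 1.7 in Mettl3 cKO and 49.1% ± 3.2 in Mettl3 control (SD, n = 2 each). Rcor1 had 36.2% in Mettl14 cKO and 32.9% in Mettl14 control, and 46.0% in Mettl3 cKO and 43.0% in Mettl3 control. With the longest transcript as length, the Rcor2 share was above the Rcor1 share in all 4 groups, at 40.3% and 36.2% in Mettl3 cKO and 43.5% and 34.1% in Mettl3 control. The mean Rcor3 share was at most 8.46% in any group, a share that depends on its annotated exon length of 13622 bases: with its longest transcript of 3791 bases it was 23.7% in Mettl14 cKO and 17.3% in Mettl14 control.

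Among the KDM5 enzymes, Kdm5b made up 22.8% ± 0.33 of the RNA per kb in Mettl14 cKO and 35.1% ± 0.32 in Mettl14 control, and 26.4% ± 0.47 in Mettl3 cKO and 28.5% ± 0.19 in Mettl3 control (SD, n = 2 each). Kdm5c, the X-linked member of the family, had 30.3 CPM per kb in Mettl14 cKO and 30.3 in Mettl14 control, and its share was 43.0% in Mettl14 cKO and 33.7% in Mettl14 control. Kdm5a took 34.1% in Mettl14 cKO and 31.1% in Mettl14 control. The rank of the KDM5 genes also depends on the length used: with the longest transcript, the Kdm5b share was 32.0% in Mettl14 cKO and 46.2% in Mettl14 control.

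**Figure D4:**
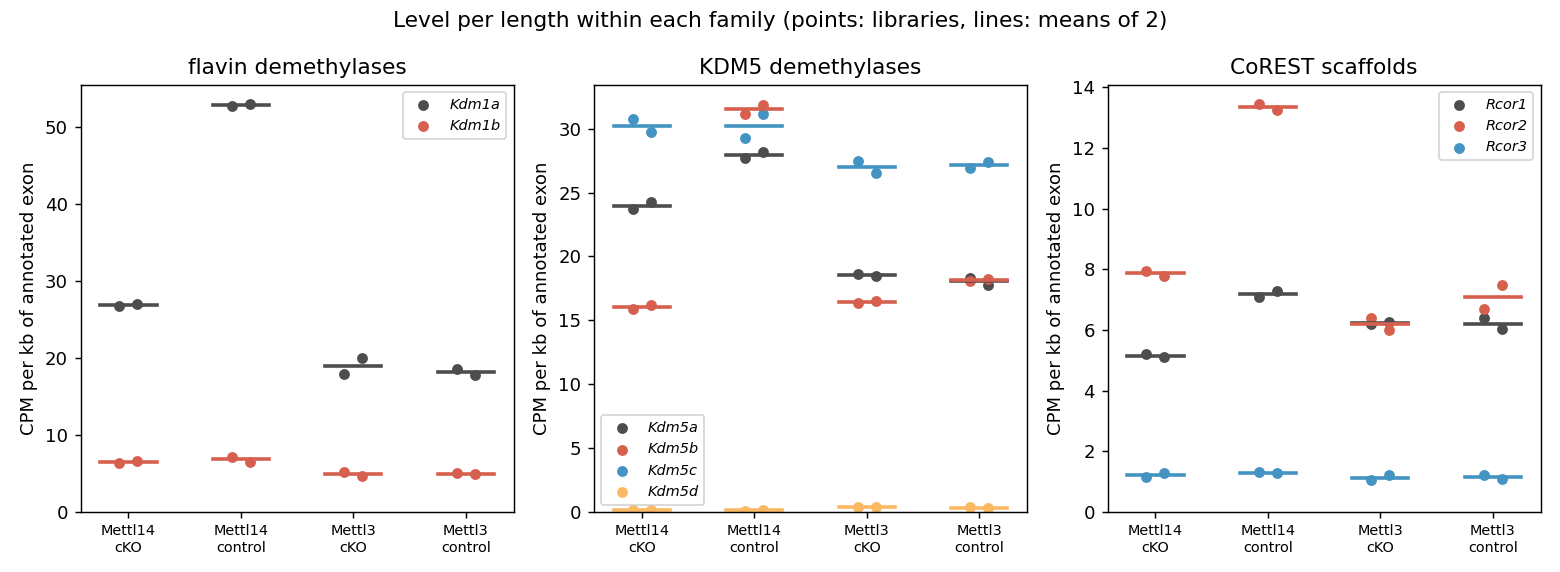
CPM per kb of annotated exon (vertical axes, from 0) of the paralogs in each family, with points for libraries and lines for means of 2. Kdm1a stands above Kdm1b in all 4 groups, and Kdm5b is at 16.0 in Mettl14 cKO and 31.5 in Mettl14 control, where Kdm5c is at 30.3 in both.

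The proteins that work with CoREST were followed through lists of known partners, whose counts stand against the 22.4% of all genes, and 44.4% of genes in the abundance range of the 7, called lower in Mettl14 cKO. Of 12 CoREST and LSD complex partners, 9 fell and 1 rose in Mettl14 cKO (median log2 fold change −0.24, beside 0.034 over all genes tested). The deacetylases Hdac1 (−0.66 ± 0.030) and Hdac2 (−0.66 ± 0.035) fell, as did Phf21a (−0.78 ± 0.070), the subunit that binds unmethylated H3K4. Among 8 DNA-binding recruiters, 5 were tested and 2 fell, the silencer Rest (−0.47 ± 0.027) and the zinc finger factor Zeb1 (−0.65 ± 0.056). That share of falls is near the 44.4% of genes in the abundance range of the 7. Snai1 (−0.037 ± 0.34), Insm1 (−0.58 ± 0.52) and Prdm1 (−0.34 ± 0.24) were not called, with 10 to 56 counts in each Mettl14 library. Of 11 subunits of NuRD, another complex with HDAC1 and HDAC2, 11 fell (median −0.38; 10 with upper-quartile scaling). These included the remodelling ATPase Chd4 (−0.39 ± 0.023), Mbd3 (−0.95 ± 0.060) and Gatad2b (−0.69 ± 0.044).

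Of the other KDM5 enzymes and the SIN3-type partners of KDM5, 5 of 10 fell and 2 rose in Mettl14 cKO (median −0.13), a share of falls near the 44.4% of genes in the abundance range of the 7. The chromodomain protein gene Morf4l1 (−1.12 ± 0.033), the scaffold Sin3a (−0.71 ± 0.033) and Phf12 (−0.72 ± 0.050) fell. Of 15 genes for the H3K4 methyltransferase complexes, which carry the opposing enzymes, 12 fell and 1 rose (median −0.32). Kmt2d (−0.77 ± 0.029) and Kmt2b (−0.73 ± 0.036), both methyltransferases, and the shared subunit Dpy30 (−0.85 ± 0.049) fell. Of 19 neuronal genes known as REST-CoREST targets, 2 rose and 2 fell (median 0.17), beside 18.0% of all genes called higher and 22.4% lower. The neurotrophin Bdnf rose (0.93 ± 0.097), whereas Stmn2 (−0.31 ± 0.040) and Chga (−0.46 ± 0.10) fell. Of the 15 not called, several had too few counts to resolve a change. In Mettl14 control, Snap25 (1.33 ± 0.68) had 4 and 4 counts and Scg3 (−0.93 ± 0.54) had 10 and 16.

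In Mettl3 cKO the number of calls in several of these lists depended on the scaling. In the main analysis the background was 15.1% of all genes called higher and 5.78% called lower. Upper-quartile scaling moved the background too: 31.8% of 4064 calls were higher, against 72.3% of 4552 in the main analysis. The calls of Gse1, Zmym3, Gatad2a, Mbd2, Kmt2d and Ncoa6, given below, held under all alternatives run. Of the 12 CoREST and LSD partners, 3 rose and 3 fell (median 0.042), among them Gse1 (0.44 ± 0.051) and Zmym3 (−0.43 ± 0.067). None of the 5 recruiters tested was called: edgeR gave 0 also at an unadjusted p under 0.05, DESeq2 and limma-voom gave 0, and upper-quartile scaling gave 2 that fell. Of the NuRD genes 5 rose (median 0.082), with Gatad2a at 0.32 ± 0.037 and Mbd2 at 0.32 ± 0.068, but 3 rose and 4 fell with upper-quartile scaling. Of the methyltransferase genes 6 rose and 3 fell (median 0.064), with Kmt2d at 0.31 ± 0.028 and its complex partner Ncoa6 at 0.48 ± 0.049, and 3 rose and 6 fell with upper-quartile scaling. Of the KDM5 and SIN3 partners 4 rose and 2 fell (median 0.10), against 0 that rose and 4 that fell with upper-quartile scaling. Morf4l1 (0.14 ± 0.037) and Sin3a (−0.12 ± 0.034) were called there. The Morf4l1 call was lost with upper-quartile scaling, with TMM factors from abundant genes, with DESeq2 and in the fit of the compared groups only. The Sin3a call was lost without the low-count filter and when either Mettl3 cKO replicate, either Mettl3 control replicate, Mettl14 cKO replicate 1 or Mettl14 control replicate 2 was left out. Of the neuronal genes 2 rose and 1 fell (median −0.083). Celsr3 (0.30 ± 0.081) lost its call with upper-quartile scaling, with TMM factors from abundant genes and with DESeq2. Stmn2 (−0.16 ± 0.051) lost it without the low-count filter and when any Mettl14 cKO or Mettl14 control replicate, Mettl3 cKO replicate 2 or Mettl3 control replicate 1 was left out.

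The difference between the changes was lower for Mettl14 cKO in 8 of 12 CoREST and LSD partners, 10 of 11 NuRD genes, 11 of 15 methyltransferase genes, 6 of 10 KDM5 and SIN3 partners (1 was higher) and 2 of 5 recruiters. With upper-quartile scaling these counts were 5, 9, 9, 4 and 2. In the main analysis the background was 20.5% of all genes and 44.8% of genes in the abundance range of the 7. The recruiters were near the latter. Upper-quartile scaling moved the background too: 60.6% of 7075 calls were higher, against 38.4% of 7238 in the main analysis. The counts with that scaling are therefore not set against these shares. Among the neuronal genes 1 was higher and 1 lower.

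**Figure D5:**
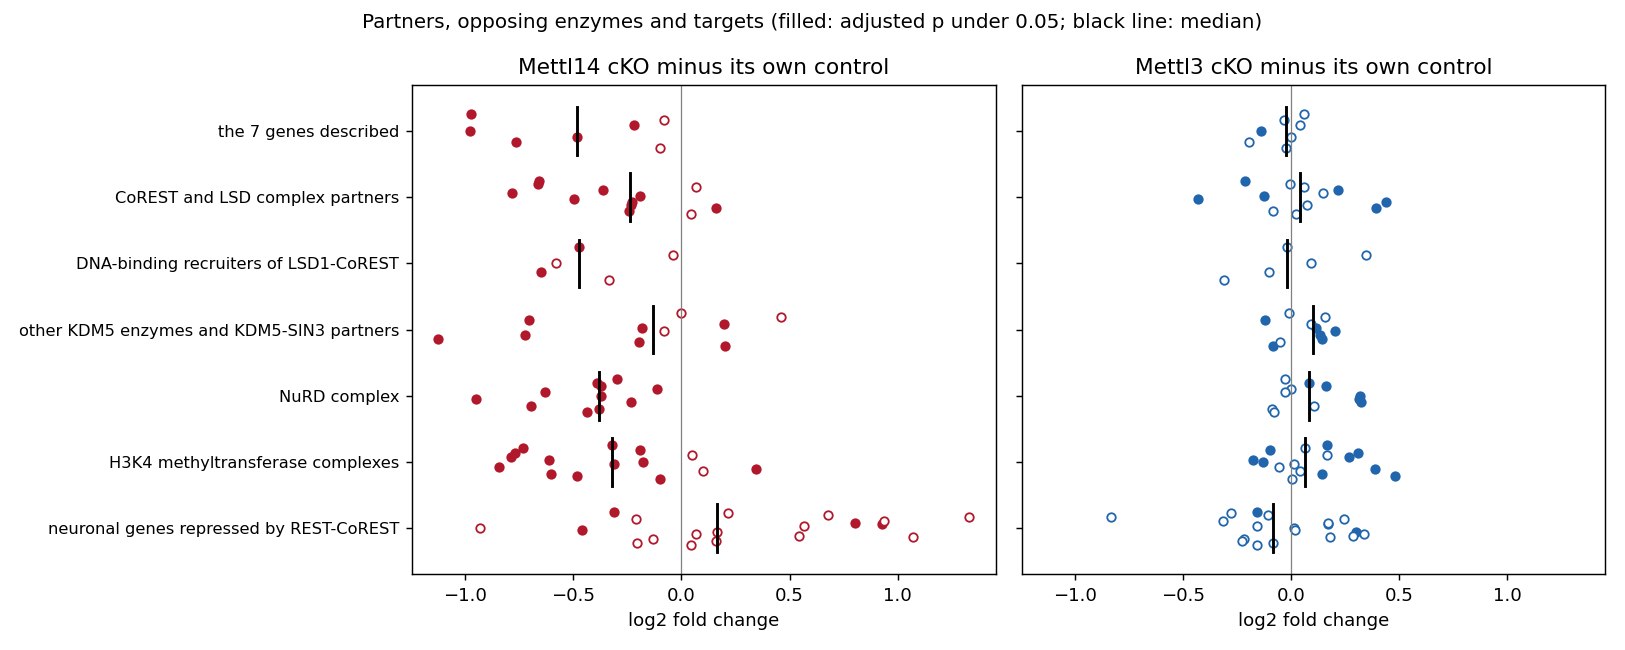
Log2 fold change (horizontal axis, same scale in both panels) of the 7 genes and of each list, with filled points for an adjusted p under 0.05 and black lines for medians. In Mettl14 cKO the medians lie at −0.48 for the 7 genes and between −0.47 and 0.17 for the lists, and in Mettl3 cKO between −0.083 and 0.10.

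Genes whose pattern over the 8 libraries lay closest to each of the 7 were sought among 9319 protein-coding genes, by the root mean square distance between log2 CPM values centred on their means. Dnajc2 (0.047) and Ppig (0.048) were closest to Kdm1a, and Nfatc2ip (0.042) and Akap8l (0.045) to Kdm5b. Ubxn1 (0.055) and Cep70 (0.069) were closest to Rcor2, and Ccdc93 (0.020) and Rad50 (0.031) to Rcor1. Tubb5 (0.026) and Gfm1 (0.028) were closest to Kdm5a, Fntb (0.036) and Xndc1 (0.042) to Kdm1b, and Tmem186 (0.048) and Ddx47 (0.066) to Rcor3. Within the 7, the closest pair was Kdm1b and Kdm5a (0.083), followed by Kdm5b and Rcor2 (0.16). All these patterns share the same 8 libraries and their differences between lines.

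m6A itself was not measured in these files. As a sequence feature only, the m6A consensus form GGACT occurred 0.661 times per kb in the longest Kdm1a transcript, 1.2 in Kdm1b, 1.1 in Kdm5a, 1.38 in Kdm5b, 0.704 in Rcor1, 1.06 in Rcor2 and 0.791 in Rcor3. All 7 values lie within the middle part of the 15824 tested protein-coding genes, whose quartiles were 0.639 and 1.48 (median 1.03). The pair with the strongest falls in Mettl14 cKO, Kdm1a and Kdm5b, had the lowest and the highest of the 7 values. Whether the motif density is tied to the changes was not tested.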

How the data were processed

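The deposited values are unnormalized read counts by gene, with a table for each library, which the authors made with HTSeq on the mm10 genome; CASAVA, Trimmomatic 0.38 and HISAT2 2.1.0 are also named, per the submitters' processing notes. Per the labels' protocols, nuclear RNA was purified with Trizol, freed of ribosomal RNA with a RiboMinus kit and made into SMARTer Stranded libraries. For the annotation release and the strand setting, neither is given in the sources used here. Groups and replicate numbers came from the sample titles. No pair of replicates was a copy: chi-square over degrees of freedom for their counts was at least 1.42 and at most 2.05.

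Gene identifiers were matched without version to GENCODE M21 (54409 of 54446). Genes were kept with filterByExpr at a minimum count of 10. Quasi-likelihood tests (glmQLFit with the robust option, glmQLFTest) came from edgeR 4.0.16 under R 4.3.3, with TMM scaling; all 8 libraries entered 1 fit, which had 4 group means and left 4 residual degrees of freedom. Benjamini-Hochberg adjustment ran over 21782 genes, and a gene was called at an adjusted p under 0.05, which is what "rose" and "fell" mean. Each cKO was compared with its own control, the changes with each other, and Mettl14 control with Mettl3 control. The steps were tested on simulated data first. The 7 genes, the lists and the naming rule were chosen with earlier results of these data known. That rule names, from each list, up to 3 called genes with the smallest p in Mettl14 cKO and up to 2 in Mettl3 cKO, and for each of the 7 genes the 2 nearest protein-coding genes whose average log2 CPM is 3 or more. The abundance range of the 7 genes is an average log2 CPM of 4.02 (Rcor3) to 8.40 (Kdm5b), and each of the 7 was ranked within this whole range. Alternatives were other scalings, no low-count filter, DESeq2 1.42.0, limma 3.58.1 (voom), a fit of the compared groups only, a replicate block and leaving out each library.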

Additional observations from a re-analysis of the deposited data

Results flagged for a closer look

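The change in Mettl14 cKO differed from that in Mettl3 cKO for 5 genes, by edgeR's test of the difference between the changes. In that test 20.5% of all genes were called lower and 12.7% higher. Within the abundance range of the genes described here, 44.8% were called lower. The difference, on the log2 scale, was −1.04 for Kdm1a, −0.83 for Kdm5b, −0.57 for Rcor2, −0.48 for Rcor1 and −0.26 for Kdm5a. The Kdm5a call was lost with TMM factors from abundant genes (−0.0925, edgeR, adjusted p = 0.0637). Mettl14 control, against which the Mettl14 cKO change was taken, was higher than Mettl3 control for these 5 genes, although for Rcor1 the sign turned with upper-quartile scaling (−0.0084) and with TMM factors from abundant genes (−0.095). Its summed pluripotency and mitochondrial transcripts were the highest of the 4 groups. The part of these group differences in the results was not tested.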

How the results depend on the processing

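The count of 5 genes called in Mettl14 cKO was the same under all 16 alternatives run. The count called in the difference was 5, or 4 with TMM factors from abundant genes. The count in Mettl3 cKO was 1, Kdm5b, in the main analysis. With upper-quartile scaling and with TMM factors from abundant genes it was 2, Kdm5b and Rcor2, both lower. Without the low-count filter it was also 2, but these were Kdm1a and Kdm5a, both higher, and the Kdm5b call was lost. The count ranged from 1 to 2 when single libraries were left out. The count between controls ranged from 4 to 7. Same-numbered libraries deviated together only weakly (correlations of −0.032 to 0.11), so the numbers were not taken as pairs; with the replicate block the counts were 5, 1, 5 and 6 for Mettl14 cKO, Mettl3 cKO, the difference and the controls. Some log2 fold changes turned sign, each uncalled where it did; the scaling factors moved all genes together, and beyond that the cause was not tested. With upper-quartile scaling these were, in Mettl3 cKO, Kdm1a (−0.052), Kdm5a (−0.072) and Rcor1 (−0.11), in the difference Kdm1b (0.11) and Rcor3 (0.079), and between controls Rcor1 (−0.0084) and Rcor3 (−0.039). With TMM factors from abundant genes they were Kdm1b in Mettl14 cKO (0.0040), Kdm1a (−0.026), Kdm5a (−0.045) and Rcor1 (−0.085) in Mettl3 cKO, Kdm1b (0.12) and Rcor3 (0.091) in the difference, and Rcor1 (−0.095) and Rcor3 (−0.13) between controls. In Mettl3 cKO, Rcor1 also turned with RLE scaling (−0.017), DESeq2 (−0.017) and the compared groups only (−0.036), and Kdm1b (0.075) and Rcor3 (0.086) without the low-count filter. Leaving out single libraries gave ranges of −0.0048 to 0.073 for Rcor1, −0.068 to 0.084 for Kdm1b and −0.087 to 0.12 for Rcor3 in Mettl3 cKO. Scaling also moved the split of calls: the share called higher was 44.6% in Mettl14 cKO (56.0% with TMM factors from abundant genes), 72.3% in Mettl3 cKO (31.8% with upper-quartile scaling, 91.2% without the filter), 38.4% in the difference (62.4% with factors from abundant genes, 26.0% without the filter) and 49.7% between controls (32.6% with factors from abundant genes). Upper-quartile scaling shifted the median of all genes by −0.11 in Mettl3 cKO, 0.16 in the difference and −0.22 between controls. With 267 to 336 counts per library, Rcor3 had a standard error of 0.10 and smaller changes could not be resolved.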
